A study of Mus musculus with 6 samples.

Results

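Voltage-gated sodium channel subunits were examined in islets of the mouse pancreas, small clusters of hormone-secreting endocrine cells. The 6 genes were taken by symbol from a list of alpha and beta subunits, and all 6 were among the 40840 rows of the count table. They are the pore-forming alpha subunit genes Scn9a, Scn8a, Scn3a and Scn2a and the auxiliary beta subunit genes Scn3b and Scn2b. The list was selected on symbols by a choice made with earlier results of these data known, the KO and WT values of Scn9a among them, and no other measured value is recorded as part of the choice. The values of the members in KO against WT are therefore a description, and nothing is supported with them.

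The libraries came from total RNA of islets, 3 labelled KO and 3 labelled WT, both on the C57BL/6J background. The series concerns IGF2R in beta cells, and Igf2r encodes the receptor that carries lysosomal enzymes to endosomes and clears insulin-like growth factor 2. The labels give neither the way the gene was removed, nor the cells it was removed from, nor the sex and age of the mice. Nothing in them ties the 3 libraries of a genotype to different mice, so the p-values measure only how much these libraries vary, and that variation may be technical. KO libraries are numbered here by their columns, 1 to 3. Total counts ranged from 16689319 to 18956235 in KO and from 16943764 to 18757633 in WT libraries.

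Voltage-gated sodium channels open when the membrane depolarises and carry the fast inward current that starts an action potential. The alpha subunit forms the pore, the voltage sensors and the inactivation gate that plugs the pore from inside the cell. Beta subunits are single-pass membrane proteins with an immunoglobulin-like domain that change channel gating and surface level. In mouse islets, Scn9a and Scn3a are the alpha subunit genes known for sodium currents, with Scn9a prominent in beta cells and Scn3a in alpha cells. Scn8a and Scn2a are best known from central neurons, where their channels gather at the axon initial segment.

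The alpha subunit genes are close paralogs. Over the aligned coding sequence (GENCODE M21 transcripts, GRCm38), Scn9a shared 79.3% of bases with Scn3a, 79.4% with Scn2a and 74.0% with Scn8a, and Scn3a shared 84.1% with Scn2a. The beta subunit genes Scn3b and Scn2b shared 62.5% of 554 aligned bases. Identical stretches long enough to confuse short reads were few. Of all 50-base windows of the transcript, 5.36% in Scn9a, 8.53% in Scn3a, 7.59% in Scn2a and 0.053% in Scn8a also stood in a transcript of another sodium channel gene examined here, and none did in Scn3b or Scn2b. At 100 bases the shares were 1.96% for Scn9a and 2.95% for Scn3a. No source used here gives the read length or the handling of reads with several matches, so the split of reads among Scn9a, Scn3a and Scn2a is uncertain to that extent.

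The genes sit in clusters. On chromosome 2 of GRCm38, 5 family genes span 1328 kb. Scn3a lies at 65457118 to 65567627 on the minus strand, Scn2a at 65620771 to 65767447 on the plus strand and Scn9a at 66480080 to 66634962 on the minus strand, with Scn1a and Scn7a in the same stretch. Scn8a lies on chromosome 15, from 100869858 to 101045938, and the beta subunit genes on chromosome 9, Scn3b from 40269217 to 40291618 and Scn2b from 45117782 to 45130070, all on the plus strand. An annotated antisense gene, Gm13629, runs opposite to Scn9a, and it had at most 1 count in any library. Another 3 tested genes lie in the chromosome 2 cluster, with log2 fold changes of -0.20 to 0.14, and 0 of them were called by edgeR (smallest adjusted p 0.829) or had groups that did not overlap.

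The sequence before the first listed start sites differed between members in CG dinucleotides, the letters that can carry DNA methylation. RefSeq promoters (GRCm38.p6) matched 4 of the 6 genes, Scn9a, Scn8a, Scn2a and Scn2b. The 250 bases before the first listed start are shown for the gene at the centre of the comparison and for the most and the least expressed of the other alpha subunit genes, with each CG in capitals.
Scn9a: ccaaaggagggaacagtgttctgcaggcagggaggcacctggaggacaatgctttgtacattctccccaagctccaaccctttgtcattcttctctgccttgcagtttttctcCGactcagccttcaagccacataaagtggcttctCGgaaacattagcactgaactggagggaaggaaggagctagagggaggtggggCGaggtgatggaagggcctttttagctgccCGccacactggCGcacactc
Scn8a: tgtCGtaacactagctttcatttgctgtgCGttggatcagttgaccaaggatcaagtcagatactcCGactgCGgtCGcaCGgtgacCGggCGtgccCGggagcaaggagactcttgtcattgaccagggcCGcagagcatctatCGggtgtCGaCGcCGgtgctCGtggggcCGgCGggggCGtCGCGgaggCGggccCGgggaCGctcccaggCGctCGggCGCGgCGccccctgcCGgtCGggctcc
Scn2a: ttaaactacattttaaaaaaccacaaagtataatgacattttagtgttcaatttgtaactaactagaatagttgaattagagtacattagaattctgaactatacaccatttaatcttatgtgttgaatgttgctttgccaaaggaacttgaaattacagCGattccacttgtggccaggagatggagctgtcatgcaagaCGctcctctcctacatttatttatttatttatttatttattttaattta
They are chr2:66634963-66635212 on the minus strand for Scn9a, chr15:100870395-100870644 on the plus strand for Scn8a and chr2:65620519-65620768 on the plus strand for Scn2a. RefSeq and GENCODE M21 starts differ for Scn8a. The GENCODE gene starts earlier, at 100869858, so the Scn8a window lies inside that gene, though in none of its exons. The Scn9a stretch held 5 CG and 54.4% G and C, the Scn8a stretch 30 CG and 68.0%, and the Scn2a stretch 2 CG and 29.6%, while the same window of Scn2b held 1 CG. Of that Scn2b window, 94 bases are exon of Scn2b itself in GENCODE M21. RefSeq lists another start for Scn2a and for Scn8a, and before it both held 9 CG and 53.2% G and C, so this difference between them belongs to the first starts alone. Of 32851 RefSeq promoter windows of this length, 55.6% held at least as many CG as Scn9a, 5.9% as many as Scn8a and 81.2% as many as Scn2a. The TATA motif TATAAA, searched on both strands, was found in 12.4% of all windows and in none of the 3 shown, though it was found before the other Scn2a start. The GC box GGGCGG, also searched on both strands, was found in 32.7% of all windows and in none of the 3. These counts describe the letters only.

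The first check was the targeted gene. Igf2r stood at 49.3, 48.1 and 48.4 CPM in KO libraries 1 to 3, against 94.98, 128 and 115 CPM in WT libraries 1 to 3 (CPM are counts scaled by TMM to libraries of the same nominal size). The log2 fold change of KO over WT was -1.21 (SE 0.0946, edgeR adjusted p 0.00261), in the direction the labels give. Leaving out KO library 1 or KO library 2 ended the edgeR call for Igf2r (adjusted p 0.130 and 0.192) at about the same log2 fold change, -1.22 and -1.20, and so did the acinar level below as a covariate (adjusted p 0.247). One more feature differed between the libraries, their acinar level. Of the 14 acinar markers, genes of the digestive-enzyme cells around islets, 13 were tested, all 13 had lower values in KO, and none of the 14 was at 0 in all libraries. Their groups did not overlap for 8 of the 13, against 7.69% of all genes with KO lower. edgeR and limma-voom called 0 of them, with 11 at an unadjusted p under 0.05 in edgeR, against 11% of all genes, and DESeq2 called 10 of the 11 to which it gave an adjusted p, against 1.02% of all genes. Their summed level was 737 to 2144 CPM in KO and 2332 to 14460 CPM in WT, and it was high in WT libraries 1 and 2. Fits without WT libraries 1 and 2, without the acinar genes, and with the acinar level as a covariate were also run. Without the acinar genes, which takes only those rows out, Scn9a was at a log2 fold change of -0.327. Each listed gene kept its sign in that fit. In the covariate fit Scn9a kept its sign, and Scn3a, Scn2a and Scn8a changed theirs, with 0 of the listed genes called. The summed acinar level was lower in every KO than in every WT library, so that fit can hardly separate it from genotype. The SE of Scn9a was 0.130 there, against 0.0705 in the main fit, and nothing is concluded from its signs or calls.

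Across the family, per exon length, Scn9a had the highest mean level and Scn2a the lowest among the listed genes. Levels between genes are given as RPKM, the CPM of a gene divided by its annotated exon length in kilobases. Scn9a stood at 5.55 ± 0.559 RPKM in KO and 6.96 ± 0.485 RPKM in WT (SD, n = 3 each). Scn8a stood at 4.28 ± 0.0307 RPKM in KO and 4.41 ± 0.174 RPKM in WT. Next came the beta subunit gene Scn3b, with 3.53 ± 0.283 RPKM in KO and 3.79 ± 0.327 RPKM in WT, and Scn3a, with 3.50 ± 0.491 RPKM in KO and 3.47 ± 0.0811 RPKM in WT. Scn3b and Scn3a did not differ beyond the spread of the 6 libraries. Scn2b followed with 1.43 ± 0.250 RPKM in KO and 1.29 ± 0.126 RPKM in WT, and Scn2a stood at 0.252 ± 0.00679 RPKM in KO and 0.281 ± 0.0711 RPKM in WT. Apart from Scn3b and Scn3a, neighbours among the 6 had ranges over the libraries that did not overlap. With the longest transcript as length the order was the same.

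Of 6 further sodium channel genes examined, 4 passed the low-count filter, and Scn7a was the one at a comparable level. Scn7a, which encodes a sodium channel that is not gated by voltage in the usual way, stood at 2.002 ± 0.650 RPKM in KO and 2.14 ± 0.537 RPKM in WT. Its libraries varied widely within each genotype, with 11.6, 12.3 and 20.2 CPM in KO libraries and 11.2, 18.3 and 17.7 CPM in WT libraries. The others were near the limit of detection. Scn4b, a beta subunit gene, and the alpha subunit genes Scn11a and Scn1a averaged 0.0802 to 0.122 RPKM over the 6 libraries, with single counts of 5 to 23. Scn4a, the skeletal muscle gene, had 0 to 4 counts per library, and Scn10a, known from sensory neurons, had 0 in all 6. A count of 0 allows up to 3 counts per library, a level of 0.159 to 0.179 CPM in these libraries.

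**Figure D1:**
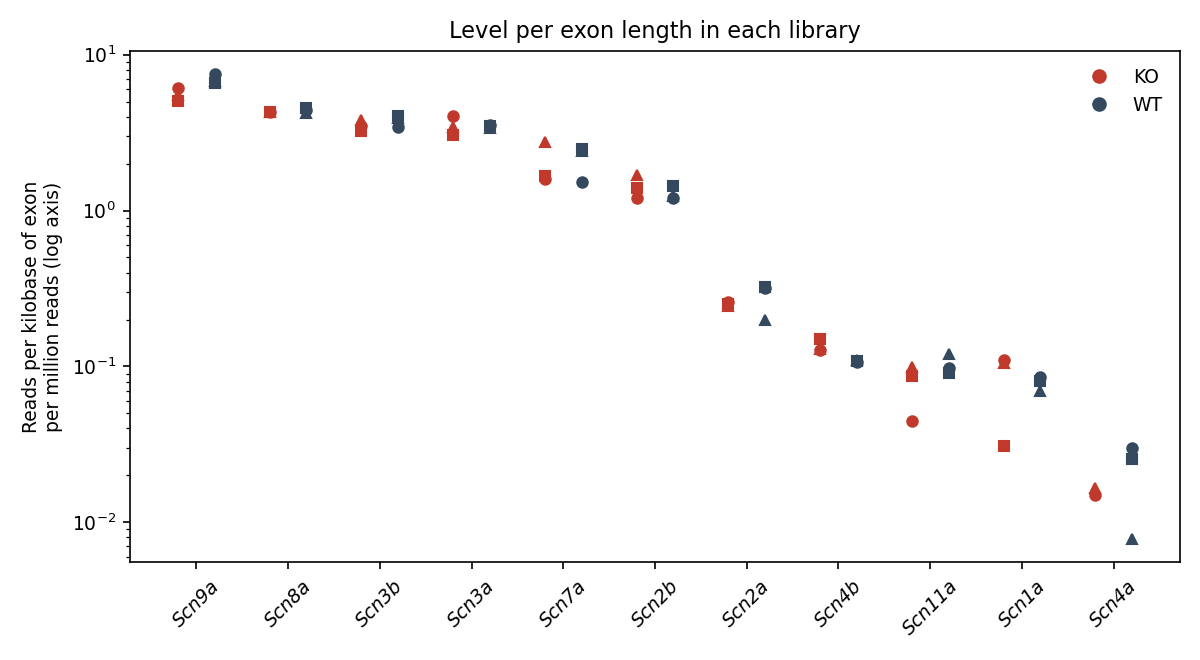
RPKM (CPM per kilobase of annotated exon, log axis) for 11 sodium channel genes, with 1 point for each of the 3 KO and 3 WT libraries. Scn9a, Scn8a, Scn3b and Scn3a lie at 3.04 RPKM or above in every library, Scn2a at 0.323 RPKM or below, and a library with 0 counts (Scn4a in KO library 2) has no point.

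Scn9a was the member whose libraries separated by genotype. It held 1476, 1121 and 1190 counts in KO libraries 1 to 3 and 1809, 1419 and 1567 counts in WT libraries 1 to 3. On the CPM scale these were 78.4, 64.2 and 70.0 CPM in KO, against 96.0, 84.5 and 86.2 CPM in WT. Every KO library lay below every WT library, with KO library 1 and WT library 2 nearest to each other. The means were 70.9 ± 7.14 CPM in KO and 88.9 ± 6.19 CPM in WT (SD, n = 3 each), a change of -20.3% with a 95% interval of -28.1% to -11.6% that is not adjusted for the number of genes. As a log2 fold change this was -0.33 (SE 0.0705), which did not pass over all genes tested (edgeR adjusted p 0.211). Against WT library 3 alone, the WT library with the low acinar level, it was -0.28 (edgeR adjusted p 0.999). DESeq2 called Scn9a (log2 fold change -0.33, adjusted p 0.0264), and limma-voom did not (-0.33, adjusted p 0.310). Over 17 alternative settings the log2 fold change lay between -0.41 and -0.26, and the adjusted p between 3.68e-05 (edgeR with no low-count filter) and 1.

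Scn8a, the alpha subunit gene next in level, was even across libraries. It stood at 67.1, 68.0 and 67.2 CPM in KO libraries and 70.1, 71.9 and 66.5 CPM in WT libraries. The groups overlapped because WT library 3 was the lowest of the 6. On the log2 scale KO over WT stood at -0.04 (SE 0.0559, edgeR adjusted p 0.813), with a 95% interval of -10.5% to 5.22% for the change. It was 0.019 against WT library 3 alone. The coefficient of variation was 0.717% in KO and 3.95% in WT, where counting alone gives 2.86% at this depth.

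Scn3a, the alpha subunit gene prominent in alpha cells, spread within KO rather than between genotypes. It stood at 50.03, 37.8 and 42.9 CPM in KO libraries and 44.0, 43.6 and 42.1 CPM in WT libraries. KO libraries 1 and 2 were the highest and the lowest of the 6, on either side of all WT libraries. Between genotypes, the log2 fold change was 0.01 (SE 0.0823, edgeR adjusted p 0.967), with a 95% interval of -10.5% to 13.9%. Without KO library 1 it was -0.10, and without KO library 2 it was 0.11. The 8 alpha cell markers, with Gcg the glucagon gene among them, summed to 30515, 32469 and 34050 CPM in KO libraries 1 to 3 and to 28178, 34195 and 36460 CPM in WT libraries 1 to 3, so KO library 1, the highest for Scn3a, was the lowest KO library for these markers.

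Scn2a was near 3 CPM throughout. It held 62, 56 and 53 counts in KO libraries, against 77, 69 and 46 counts in WT libraries, or 3.29, 3.21 and 3.12 CPM in KO and 4.09, 4.11 and 2.53 CPM in WT. WT library 3 was the lowest of the 6, and the KO libraries lay between it and the other WT libraries. The log2 fold change was -0.15 (SE 0.195, edgeR adjusted p 0.807) and its 95% interval ran from -32.2% to 19.1%. It was 0.34 against WT library 3 alone. Counting alone gives a coefficient of variation of 12.9% at this depth.

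The beta subunit genes overlapped between genotypes. Scn3b stood at 19.2, 17.7 and 20.8 CPM in KO libraries and 18.7, 22.0 and 21.5 CPM in WT libraries. WT library 1 lay among the KO values. The log2 fold change was -0.11 (SE 0.0915, edgeR adjusted p 0.700), with a 95% interval of -18.5% to 6.08%. Scn2b, whose product links to the alpha subunit by a disulfide bond, stood at 5.58, 6.53 and 7.89 CPM in KO libraries and 5.57, 6.67 and 5.78 CPM in WT libraries. KO library 3 was the highest of the 6 and the other values were mixed. Its log2 fold change was 0.15 (SE 0.147, edgeR adjusted p 0.740), with a 95% interval of -10.4% to 37.1%, and it was 0.01 without KO library 3.

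**Figure D2:**
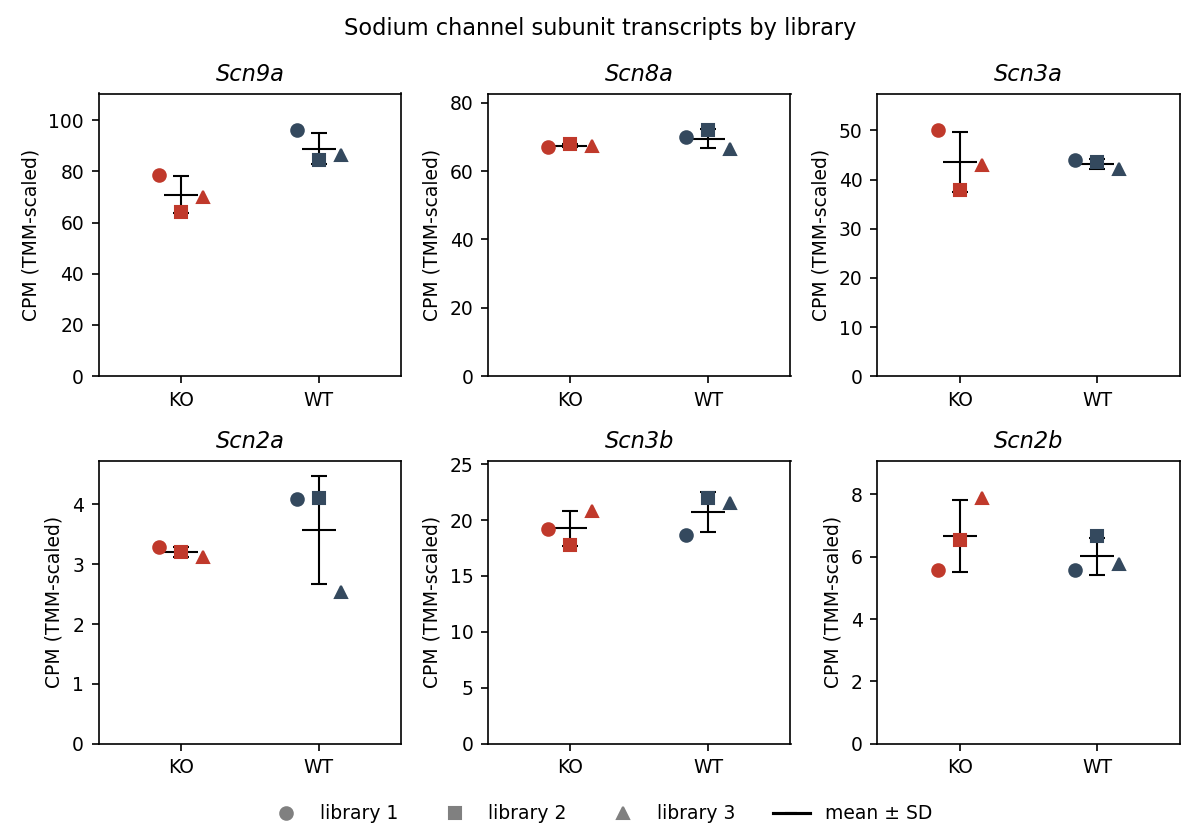
TMM-scaled CPM of the 6 listed subunits in each library, KO left of WT, with 1 symbol per library number and the mean ± SD (n = 3 each). The groups do not overlap for Scn9a (64.2 to 78.4 CPM in KO, 84.5 to 96.0 CPM in WT) and overlap for the other 5.

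In all, edgeR called 0 of the 6 listed genes, where 0.0123% of the 16240 genes tested were called. At an unadjusted p under 0.05 the count was 1, Scn9a, against 11% of all genes. DESeq2 gave an adjusted p to 3 of the 6 and called 1, where it called 1.02% of the 6076 genes with an adjusted p, and limma-voom called 0. The groups did not overlap with KO lower for 1 of 6, Scn9a, against 7.69% of all genes, and with KO higher for 0 of 6, against 8.02% (15.7% of all genes in either direction). Since the list was chosen with this contrast known, nothing is read from these counts. Of the 6, 4 had negative and 2 positive log2 fold changes, with a median of -0.07, where all genes tested had a median of 5.3e-05. Among the 4 further sodium channel genes tested, edgeR called 0, with 0 at an unadjusted p under 0.05, limma-voom called 0, and DESeq2 gave an adjusted p to 0. On the log2 fold change scale Scn7a was at -0.10 (SE 0.325), Scn1a at 0.07 (SE 0.379), Scn11a at -0.44 (SE 0.415) and Scn4b at 0.32 (SE 0.366), with edgeR adjusted p of 0.727 to 0.959. Scn4b had groups that did not overlap, on 12, 13 and 11 counts in KO libraries, against 10, 9 and 10 counts in WT libraries, numbers that lie within counting error of each other.

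**Figure D3:**
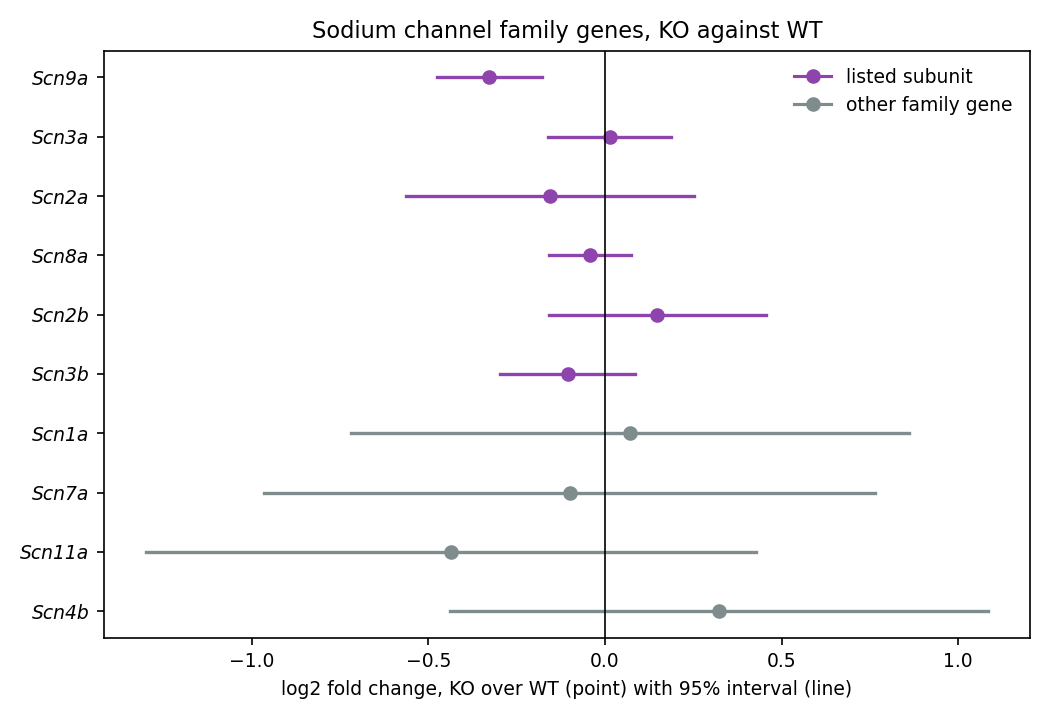
Log2 fold change of KO over WT (points) with its 95% interval (lines) for 10 tested sodium channel genes. The Scn9a interval, -0.48 to -0.18, lies below 0, those of the other 9 genes span 0, and no interval is adjusted for the number of genes.

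Within a library, Scn9a was compared with the other alpha subunit genes as a ratio of counts, which does not depend on scaling between libraries. The ratio of Scn9a to Scn3a was 1.57, 1.70 and 1.63 in KO libraries 1 to 3, against 2.18, 1.94 and 2.05 in WT libraries 1 to 3. All KO ratios lay below all WT ratios, with means of 1.63 ± 0.0645 in KO and 2.06 ± 0.122 in WT (SD, n = 3 each). The ratio of Scn9a to Scn8a was 1.17, 0.944 and 1.04 in KO libraries, against 1.37, 1.18 and 1.30 in WT libraries. KO library 1 and WT library 2 almost met on that ratio. The ratio of Scn3a to Scn8a was 0.745, 0.556 and 0.638 in KO libraries and 0.628, 0.606 and 0.633 in WT libraries, and the groups overlapped. The ratios rest on the same Scn9a counts as the contrast above and are no further support.

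**Figure D4:**
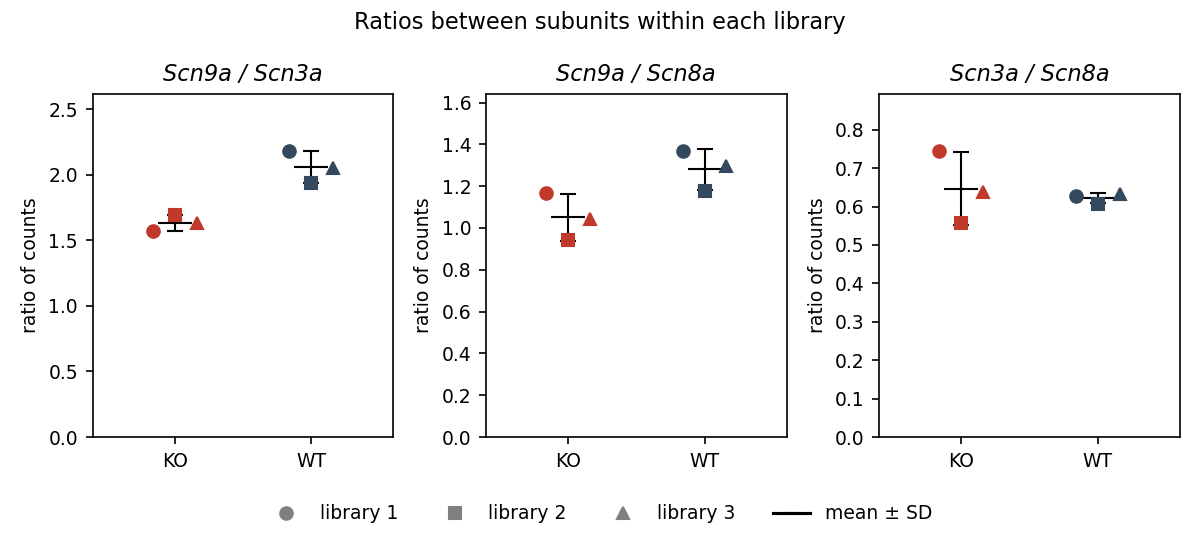
Ratios of counts between alpha subunit genes within each library, KO left of WT, with the mean ± SD (n = 3 each). Scn9a to Scn3a is 1.57 to 1.70 in KO and 1.94 to 2.18 in WT, while the KO and WT values of Scn3a to Scn8a overlap.

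Taken as a pool, the 6 listed genes summed to 224, 197 and 212 CPM in KO libraries and 238, 233 and 225 CPM in WT libraries. KO library 1 and WT library 3 were close, and the means of 211 ± 13.1 CPM in KO and 232 ± 6.95 CPM in WT (SD, n = 3 each) differed by -9.01%. Without Scn9a the sums were 145, 133 and 142 CPM in KO libraries and 142, 148 and 138 CPM in WT libraries, which overlapped, and the means differed by -2.003%. Scn9a made up 35.1%, 32.5% and 33.0% of the counts of the 6 genes in KO libraries, against 40.3%, 36.3% and 38.4% in WT libraries. The KO shares all lay below the WT shares.

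The cell types an islet preparation can hold were set beside these values. In bulk RNA, fewer cells of a type and less RNA per cell cannot be told apart. The 10 beta cell markers, with the insulin genes among them, summed to 143702 to 164681 CPM in KO and 131403 to 150942 CPM in WT, which overlapped. That sum is mostly the insulin genes, whose values ran in opposite directions. Ins2 stood at 113772, 120982 and 104402 CPM in KO libraries, against 88600, 87187 and 94419 CPM in WT libraries (log2 fold change 0.33, SE 0.0555, edgeR adjusted p 0.211). Ins1 stood at 24738, 26296 and 21992 CPM in KO libraries, against 27263, 37749 and 40127 CPM in WT libraries (log2 fold change -0.53, SE 0.182, edgeR adjusted p 0.439). They are close copies, so the split of reads between them is uncertain. Both are named as the 2 beta cell markers with the highest mean CPM, and their opposite directions were singled out after their values were seen. Of the 10 markers, 7 were above and 3 below 0 in log2 fold change. Among them, 6 had KO and WT libraries that stood apart, with KO higher for 5 and lower for 1, against 15.7% of all genes in either direction. edgeR called 0, with 6 at an unadjusted p under 0.05, against 11% of all genes. DESeq2 called 1 of the 10, Ins2 (adjusted p 1.27e-05), against 1.02% of all genes, and limma-voom called 0. Neuronal markers summed to 201 to 234 CPM in KO and 199 to 221 CPM in WT, and Schwann cell and glial markers to 151 to 164 CPM in KO and 155 to 163 CPM in WT. All 10 neuronal and all 9 Schwann cell and glial markers were tested, and edgeR called 0 of either list. At an unadjusted p under 0.05 were 0 and 1, against 11% of all genes. limma-voom also called 0 of either list, and DESeq2 gave an adjusted p to only 2 neuronal and 1 Schwann cell and glial markers and called 0 of these. Neurons and glia are sources of sodium channel transcripts outside endocrine cells, and the summed levels of both lists overlapped between genotypes. The neuronal sum rests largely on Th (means of 75.8 CPM in KO and 79.0 CPM in WT) and Elavl4 (74.0 CPM in KO and 76.6 CPM in WT). The glial sum rests largely on Mbp (86.8 CPM in KO and 84.2 CPM in WT). Which cells these transcripts came from was not tested, so the sums are no measure of neurons or glia. Muscle markers, which could carry Scn4a, summed to at most 5.15 CPM in any library. Ppy, the pancreatic polypeptide gene, stood at 5166 to 5839 CPM in KO and 3008 to 4828 CPM in WT (log2 fold change 0.60, edgeR adjusted p 0.472). Of 7 duct markers tested, 3 had groups apart with KO lower, against 7.69% of all genes, and 3 an unadjusted p under 0.05, against 11%. Delta, endothelial, stromal and immune cell markers had 1 of 3, 1 of 7, 0 of 8 and 1 of 5 at that level. edgeR called 0 of all these. The part of any of these cell types in the Scn9a values was not tested.

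By likeness over the 6 libraries, the genes nearest to Scn9a were Cped1, Plk4 and Foxm1. Likeness was the root mean square difference in log2 CPM, centred over the libraries, among 12553 genes. It was 0.0418 for Cped1, 0.0444 for Plk4 and 0.0467 for Foxm1, where Scn9a itself varied by 0.193 around its mean. Cped1 stood at 9.40, 7.73 and 8.30 CPM in KO libraries and 10.7, 9.71 and 9.96 CPM in WT libraries. Plk4, a kinase of centriole duplication, stood at 2.40 to 3.24 CPM in KO and 3.40 to 3.98 CPM in WT, and Foxm1, a transcription factor, at 2.29 to 2.92 CPM in KO and 3.04 to 3.71 CPM in WT. In all 3, as in Scn9a, KO library 2 was the lowest and WT library 1 the highest. Those nearest to Scn3a were Wdr36 (0.0352), Tuba8 (0.0374) and Hsd17b7 (0.0397), where Scn3a varied by 0.118. In all 3, as in Scn3a, KO library 1 was the highest and KO library 2 the lowest. These are descriptions over 6 libraries that include both genotypes. The genes were picked for nearness over these same libraries, so the shared orders follow from the choice and are no support.

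Genes that work with the channels were described by lists. Of 17 genes for proteins that bind, anchor or ubiquitinate sodium channels, 7 were above and 10 below 0 in log2 fold change, with a median of -0.03. edgeR and limma-voom called 0, as did DESeq2 for the 13 to which it gave an adjusted p. Of the 17, 2 had an unadjusted p under 0.05 in edgeR, against 11% of all genes. The ubiquitin ligase gene Nedd4 stood at 501 ± 22.2 CPM in KO and 526 ± 11.3 CPM in WT (SD, n = 3 each). Calm3, a calmodulin gene, stood at 367, 375 and 366 CPM in KO libraries, against 348, 337 and 353 CPM in WT libraries. Every KO library lay above every WT library, and the log2 fold change was 0.09 (SE 0.0554, edgeR adjusted p 0.546). Of the 17, groups stood apart with KO higher for 1, Calm3, and with KO lower for 3, against 8.02% and 7.69% of all genes. The sodium leak channel complex, which carries a steady inward current without voltage gating, had 4 tested genes, 1 higher and 3 lower, with a median of -0.05. All 3 tools called 0 of them. Against 11% of all genes, 1 of the 4 had an unadjusted p under 0.05 in edgeR. That was Unc80, an accessory subunit gene, at 310 ± 19.1 CPM in KO and 340 ± 22.3 CPM in WT (log2 fold change -0.13, SE 0.0638, edgeR adjusted p 0.454), while Unc79 stood at 101 ± 1.61 CPM in KO and 101 ± 0.747 CPM in WT.

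Of 17 tested genes of the sodium pump and sodium exchangers, which move sodium back out of the cell, 10 were above and 7 below 0 in log2 fold change, with a median of 0.04. edgeR and limma-voom called 0, as did DESeq2 for the 7 with an adjusted p. In edgeR 1 had an unadjusted p under 0.05, against 11% of all genes. Groups stood apart with KO higher for 1 and lower for 1, against 8.02% and 7.69% of all genes. Atp1b1, a pump beta subunit gene, stood at 202 ± 9.44 CPM in KO and 209 ± 5.93 CPM in WT, and Fxyd6, a pump regulator gene, at 210.1 ± 4.06 CPM in KO and 196 ± 16.5 CPM in WT (SD, n = 3 each). Both genes overlapped between genotypes.

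Of the 9 tested calcium channel alpha subunit genes, which carry the current that triggers insulin release, 1 was above and 8 below 0 in log2 fold change, with a median of -0.09. edgeR and limma-voom called 0, as did DESeq2 for the 4 with an adjusted p. In edgeR 2 had an unadjusted p under 0.05, against 11% of all genes. Cacna1d, an L-type channel gene, stood at 231, 231 and 216 CPM in KO libraries, against 255, 256 and 235 CPM in WT libraries. Every KO library lay below every WT library, and the log2 fold change was -0.14 (SE 0.0595, edgeR adjusted p 0.414). Cacna1d was the 1 gene of the 9 whose groups did not overlap, against 7.69% of all genes with KO lower. Cacna1a stood at 209 ± 9.78 CPM in KO and 211 ± 5.61 CPM in WT (SD, n = 3 each). Of 24 tested potassium channel genes, which repolarise the cell, 10 had higher and 14 lower values, with a median of -0.03. edgeR and limma-voom called 0, as did DESeq2 for the 7 with an adjusted p. In edgeR 3 were at an unadjusted p under 0.05, against 11% of all genes. Groups stood apart with KO higher for 1 and lower for 4, against 8.02% and 7.69% of all genes. Abcc8, the sulfonylurea receptor gene, was at a log2 fold change of 0.01 (SE 0.0493) and Kcnh6 at 0.0014 (SE 0.0624). Of the 9 genes of the REST complex, a repressor of neuronal genes that include sodium channel genes, 4 had higher and 5 lower values, with a median of -0.0041. edgeR and limma-voom called 0, as did DESeq2 for the 7 with an adjusted p. In edgeR 1 had an unadjusted p under 0.05, against 11% of all genes. Ehmt2, a histone methyltransferase gene, stood at 327 ± 12.7 CPM in KO and 312 ± 11.3 CPM in WT, and Sin3a, a corepressor gene, at 122 ± 7.09 CPM in KO and 133 ± 3.39 CPM in WT (log2 fold change -0.13, SE 0.0561, edgeR adjusted p 0.419). Sin3a was 1 of 2 REST complex genes whose groups did not overlap, both with KO lower, against 7.69% of all genes.

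**Figure D5:**
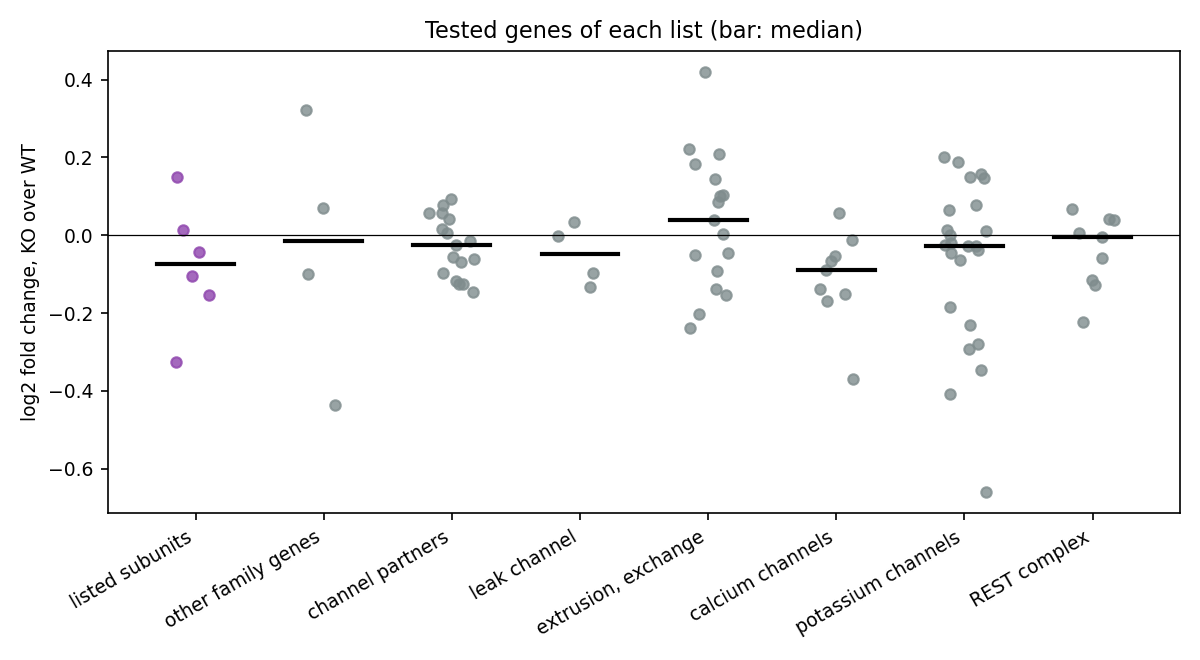
Log2 fold change of KO over WT for each tested gene of 8 lists, with the median as a bar. Medians lie between -0.09 (calcium channels) and 0.04 (extrusion and exchange), and no gene shown passed edgeR at an adjusted p of 0.05.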

How the data were processed

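RNA from mouse islets was sequenced in 3 KO and 3 WT libraries. The submitters' processing notes name the build mm10 and, as software, Trimmomatic 0.39, STAR 2.7.10b and featureCounts 2.0.3. No source used here gives the annotation, strand setting or read length. The authors deposited raw counts per gene, with 1 column per library. The titles number the KO samples 4 to 6, so a KO column stands for its group and for no particular title.

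A low-count filter, filterByExpr with a minimum count of 10 and a minimum total of 15, left 16240 genes with 99.8% to 99.9% of each library, and all 6 members passed. The comparison of KO with WT used the two-sided quasi-likelihood test of edgeR 4.0.16 (glmQLFTest after a robust glmQLFit). P-values were adjusted by Benjamini-Hochberg over all genes, at a threshold of 0.05. SE is the log2 fold change divided by the square root of F. Log2 CPM use a prior count of 2. RPKM use the union of GENCODE M21 exons on GRCm38, which may differ from the annotation counted. Coding sequences were aligned globally in Biopython 1.88. DESeq2 1.42.0 and limma-voom (limma 3.58.1) were alternatives, run in R 4.3.3, and the edgeR test was tested on simulated data. Other alternatives were 3 scalings, 2 filters, no robust estimation, acinar genes left out or as a covariate, libraries left out and 2 thresholds. Replicate libraries differed by more than sampling noise (smallest chi-square per degree of freedom 4.51).

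Members and lists were chosen with earlier results of these data known. The members, Igf2r and the further sodium channel genes tested are always named. Some genes and sequences are not reported here, and those genes are left out of the lists and their counts but not of the fit. Of each other list, up to 4 called genes are named, or else the 2 with the highest mean CPM. The 3 genes nearest to Scn9a and to Scn3a by likeness are named, leaving out placeholder symbols and genes whose mean log2 CPM was under 1. The antisense gene Gm13629 was named after its values were seen.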

Additional observations from a re-analysis of the deposited data

How the results depend on the processing

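Across 17 alternative settings the Scn9a log2 fold change stayed negative. It passed the threshold with DESeq2 (-0.33) and with no low-count filter (-0.32), and in no other setting. With single libraries left out it ranged from -0.41 to -0.26, Scn3a from -0.10 to 0.11, Scn2a from -0.35 to -0.04, Scn8a from -0.07 to -0.02, Scn2b from 0.01 to 0.26 and Scn3b from -0.18 to -0.05. The sign of Scn3a reversed without KO library 1 (-0.10), without WT library 3 (-0.0025) and with the acinar covariate (-0.074). Against WT library 3 alone, Scn2a (0.34) and Scn8a (0.019) reversed, and so they did with the acinar covariate (0.42 and 0.042). The cause was not tested. Scn2b and Scn3b kept their signs in all 16 settings that gave them an adjusted p.

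The count of listed genes called was 0 in the main edgeR fit and 1, Scn9a, with DESeq2 or with edgeR and no low-count filter. It was 0 with every single library left out. Over all genes, edgeR called 0 higher and 2 lower in KO. DESeq2 called 22 higher and 40 lower, and edgeR with no filter 108 higher and 164 lower. limma-voom, no robust estimation and a threshold of 0.01 each called 1 lower, and the acinar covariate 0 lower. Without the acinar genes, and against WT library 3 alone, 1 was called higher. With single libraries left out, 0 to 21 were called higher and 0 to 93 lower, with 21 and 93 without WT library 3, 17 and 7 without KO library 3, and 0 lower without KO library 1 or KO library 2. Of the 6 listed genes, Scn2a and Scn2b are limited most by depth, with 46 to 134 counts per library. No paired analysis was possible because the titles number the KO samples 4 to 6 and the WT samples 1 to 3.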
